A study of Mus musculus with 9 samples.

Results

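Of the 17442 genes with a value in mouse liver, 109 belong to the respiratory chain and the RNAs of the mitochondrial genome, and their levels were compared between livers labelled Msr1-/- and wild-type livers. Members were chosen by gene symbol alone: symbols starting with Nduf, Uqcr, Cox4 to Cox8, Atp5 or mt-, and Sdha, Sdhb, Sdhc and Sdhd. They comprise 90 nuclear-encoded subunits and assembly factors, 7 mitochondrially encoded mRNAs, 2 mitochondrial rRNAs, 6 mitochondrial tRNAs and 4 nuclear pseudogenes. The annotation holds 13 protein-coding genes on the mitochondrial chromosome, and the other 6 were not used here.

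RNA sequencing was done on liver from 5 male Msr1-/- and 4 male wild-type C57BL/6 mice, each animal giving 1 library. Msr1 encodes macrophage scavenger receptor 1, a surface protein with which macrophages bind and take up oxidised or otherwise altered lipoproteins. The 9 mice, wild type included, had been fed a diet high in fat and cholesterol for 16 weeks and carry the disease label NAFLD (non-alcoholic fatty liver disease). No animal on another diet is part of the comparison, and the labels do not say which cells lack the receptor or how the allele was made.

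The respiratory chain passes electrons from NADH and succinate to oxygen across the inner mitochondrial membrane, and ATP synthase (complex V) uses the resulting proton gradient to make ATP. Complex II is encoded wholly in the nucleus, whereas complexes I, III, IV and V combine nuclear-encoded subunits with a few that the mitochondrial DNA encodes. In hepatocytes, which are rich in mitochondria, the chain oxidises the NADH and FADH2 released by fatty acid oxidation.

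Between 15006773 and 18238932 reads per liver fell on the listed genes. Msr1 reads were present in every liver, at 156.8, 152.7, 209.1, 185.9 and 172.3 normalised reads in Msr1-/- livers and 255.6, 201.5, 460.5 and 194.5 in wild-type livers (two-sided exact permutation p 0.0476, and 0.107 without wild type 3). The genotypes overlapped, as the Msr1-/- value of 209.1 lay above the wild-type values of 201.5 and 194.5. With each liver left out in turn, the exact permutation p lay between 0.0286 and 0.107, and was under 0.05 in 1 of 9. These reads do not settle the genotype of each liver, which is taken from its label below. Wild type 3 stood apart from the other 8 livers. On a principal component analysis, the leading axis (41% of the variance) placed it at -88.74 and the others between -8.3 and 27.61, and the values that move without it are therefore given beside the results. Hepatocyte markers were abundant, with the 6 markers summing to between 1601063 and 2336136 normalised reads in Msr1-/- livers and between 1289833 and 1933719 in wild-type livers. The 7 Kupffer cell markers summed to between 3459 and 4740 in Msr1-/- livers and between 5926 and 12699 in wild-type livers, with wild type 3 highest. Marker sums of 4 other cell types were also lower in every Msr1-/- liver than in any wild-type liver. The 6 markers of lipid-associated macrophages summed to 794.5 to 1013 in Msr1-/- livers and 1995 to 7137 in wild-type livers, and the 4 of B and plasma cells to 165.3 to 334.7 and 487.2 to 824.5. The 3 neutrophil markers summed to 55.1 to 112.3 and 129.0 to 275.4, and the 3 cholangiocyte markers to 27.6 to 50.3 and 63.3 to 149.8, in Msr1-/- and wild-type livers. All other cell types examined overlapped between the genotypes: hepatocytes, T cells, sinusoidal endothelium, stellate cells, muscle, brown fat, adipocytes and erythroid cells. The adipocyte sum leaned the other way, at 59.1 to 465.4 in Msr1-/- livers and 10.6 to 68.3 in wild-type livers. It rests on 1 gene, Cfd, since Adipoq was at or near 0 and Plin1 was not used. Muscle and brown fat likewise had only 1 marker each at the level tested. The part of all these markers in the results below was not tested. In bulk tissue, fewer cells of a type and less RNA per cell cannot be told apart.

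No respiratory chain gene passed the test between Msr1-/- and wild-type livers. Of the 98 members with a mean of at least 10 normalised reads, 0 had an adjusted p under 0.05 in limma, against 1.37% of all 12937 genes tested. The counts were also 0 in edgeR, where 1.43% of all genes passed, and in DESeq2, where 5.98% did. At an unadjusted p under 0.05 limma gave 7 members (7.14%, against 15.3% of all genes). Of these, 4 were higher in Msr1-/- livers (Ndufv1, Uqcrc1, Ndufb6 and Ndufa10, against 7.3% of all genes), and 3 were lower (Cox6c, Uqcrh and mt-Rnr1, against 8.0%). The smallest adjusted p was 0.231, for Ndufv1. The unadjusted counts depended on the scaling. Scaling to totals without mitochondrially encoded reads gave 0 members higher and 17 lower, against 441 and 1452 of all genes. Quantile scaling gave 0 and 10, against 863 and 1000 of all genes. Values are normalised read counts, differences are on the log2(value + 1) scale as Msr1-/- minus wild type, and adjusted p values are limma's over all genes tested. They measure only the spread between these animals.

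The precision differed between the 2 genomes. The 95% interval of the log2 difference lay inside a 1.5-fold change (0.58 on the log2 scale) either way for 68 of the 87 tested nuclear-encoded members, and reached past it for the other 19. For the 7 mitochondrially encoded mRNAs it lay inside for 0, so a 1.5-fold difference was not excluded for any of them.

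**Figure D1:**
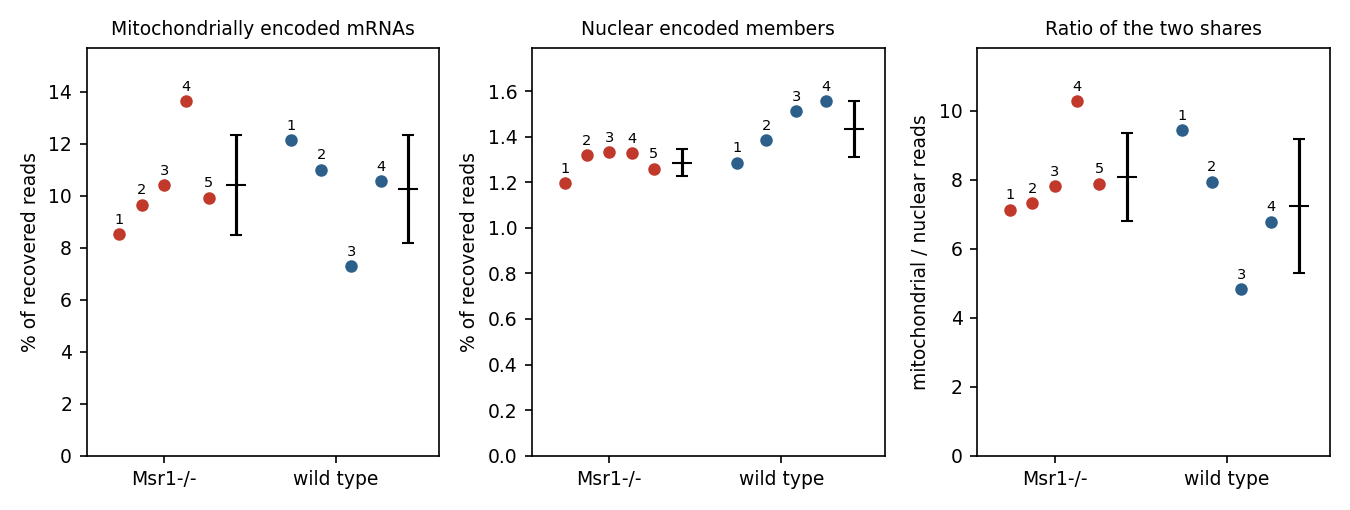
Share of each liver's reads, in percent, on the 7 mitochondrially encoded mRNAs (left panel) and on the nuclear-encoded members (middle), and the ratio of these shares (right), with 1 numbered point per animal and the mean and SD beside it, Msr1-/- left and wild type right. The mitochondrial mRNAs took 7.29% to 13.7% of the reads and the nuclear-encoded members 1.20% to 1.56%.

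As the plot of read shares shows, the 2 genomes contributed very unequal amounts of RNA. The 7 mitochondrial mRNAs took 8.53%, 9.65%, 10.4%, 13.7% and 9.93% of the reads in Msr1-/- livers and 12.1%, 11.0%, 7.29% and 10.6% in wild-type livers. The genotypes overlapped, at 10.4% ± 1.93 (SD, n = 5) and 10.2% ± 2.08 (SD, n = 4), or 11.2% ± 0.81 in wild type without wild type 3 (n = 3). The nuclear-encoded members together took 1.20%, 1.32%, 1.33%, 1.33% and 1.26% in Msr1-/- livers and 1.28%, 1.38%, 1.51% and 1.56% in wild-type livers. These overlapped too, at 1.29% ± 0.0587 and 1.43% ± 0.123. The ratio of mitochondrial to nuclear-encoded reads was 8.09 ± 1.27 in Msr1-/- livers and 7.25 ± 1.95 in wild-type livers, or 8.06 ± 1.33 in wild type without wild type 3. Because the deposited size factors scale by typical genes, the same members as summed normalised reads averaged 220329 ± 22112 in Msr1-/- livers and 226994 ± 18138 in wild-type livers.

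**Figure D2:**
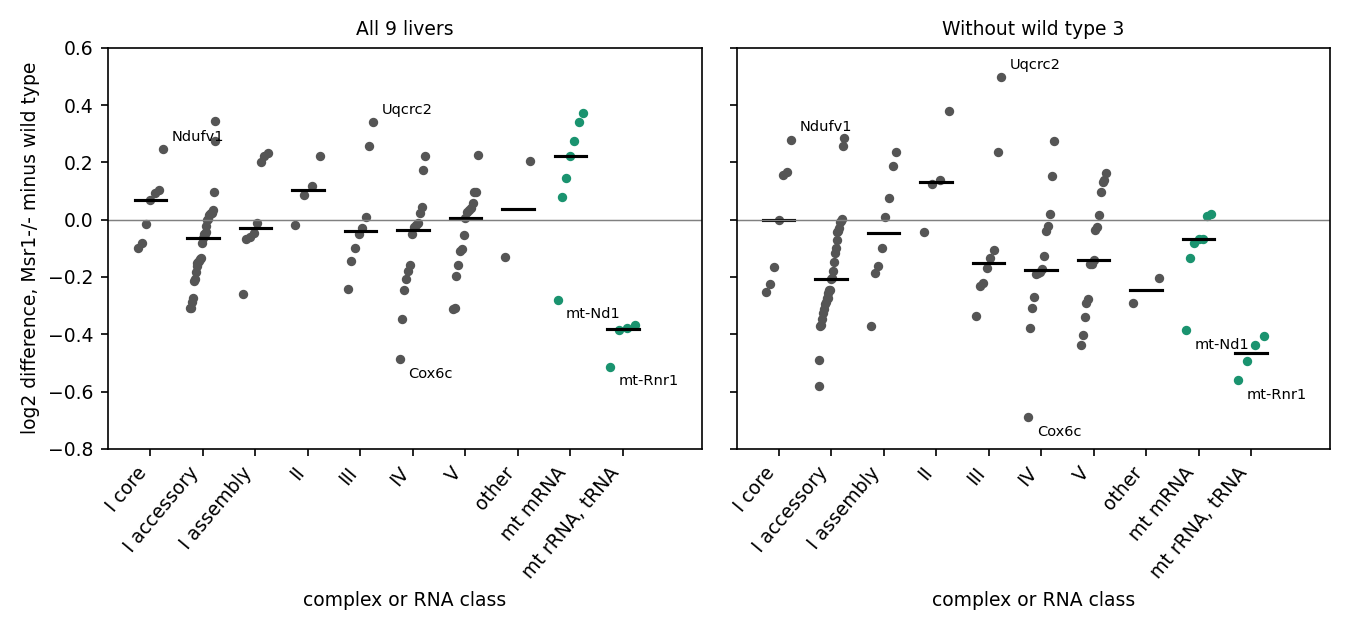
Log2 difference, Msr1-/- minus wild type, of each tested member by complex, with 1 point per gene and a bar at the median of the class, for all 9 livers (left panel) and without wild type 3 (right panel). With 9 livers the class medians of the nuclear-encoded complexes lie between -0.06 and 0.10, the mitochondrial mRNAs have a median of 0.22, and the mitochondrial rRNAs and tRNAs lie below 0.

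The median log2 difference was -0.03 over the 87 tested nuclear-encoded members, with 35 positive and 52 negative, and 0.02 over all genes tested. Without wild type 3 it was -0.15, with 24 positive and 63 negative, beside a median of 0.00 over all genes. Scaling each liver to its total without mitochondrially encoded reads moved the median of all genes to -0.09, and the nuclear-encoded median then stood at -0.14, with 14 positive and 73 negative. Relative to all genes, the nuclear-encoded members thus sat slightly lower in Msr1-/- livers in each of these settings. The SD between livers of a genotype in their median was 0.18 with 9 livers and 0.14 without wild type 3. The sign also rested on single livers, as the median was 0.02 without animal 1 of the Msr1-/- livers, with 51 positive and 36 negative.

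Complex I takes electrons from NADH. Its 7 nuclear-encoded core subunits, which carry the flavin and the iron-sulphur clusters, had a median difference of 0.07, or 0.00 without wild type 3, and 0 were called. Ndufv1, the flavin-carrying subunit that binds NADH, stood at 1892, 1922, 1932, 1807 and 2066 in Msr1-/- livers and at 1609, 1481, 1734 and 1666 in wild-type livers. Every Msr1-/- liver was higher than every wild-type liver, a separation found in either direction for 2 of the 98 members (2.04%) and for 7.29% of all genes. The log2 difference was 0.25 ± 0.09 (SE), with an adjusted p of 0.231, and 0.28 without wild type 3. Ndufs1, the largest subunit of the core, differed by 0.10 ± 0.11 (SE), with an adjusted p of 0.757, and 0.17 without wild type 3.

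The 29 accessory subunits of complex I, which surround the catalytic core, had a median of -0.06, with 9 positive and 20 negative, and -0.21 without wild type 3, with 3 positive and 26 negative. Ndufa10 had 3103, 3874, 3754, 4331 and 3266 in Msr1-/- livers and 2433, 3247, 2386 and 3573 in wild-type livers, a log2 difference of 0.35 ± 0.16 (SE) with an adjusted p of 0.321, and 0.26 without wild type 3. Its genotypes overlapped, since wild type 2 and 4 lay among the Msr1-/- livers. Ndufb6, a subunit of the membrane arm, had 504.5, 740.8, 631.9, 643.1 and 683.3 in Msr1-/- livers and 494.0, 544.4, 538.9 and 527.5 in wild-type livers. All Msr1-/- livers except animal 1 were above all wild-type livers, and the difference was 0.27 ± 0.12 (SE), adjusted p 0.312, and 0.28 without wild type 3. Ndufs4, whose loss in mice causes a Leigh-like disease, differed by -0.21 ± 0.11 (SE), adjusted p 0.389, and by -0.21 without wild type 3.

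Assembly factors build the arms of complex I and are not part of the finished enzyme. The 8 with symbols starting Ndufaf had a median of -0.03, or -0.05 without wild type 3, and individual differences from -0.26 to 0.23. Ndufaf1 averaged 615.8 ± 16.8 in Msr1-/- livers and 534.2 ± 102.4 in wild-type livers, Ndufaf8 177.2 ± 35.8 and 211.5 ± 36.2, and Ndufaf2 287.5 ± 18.4 and 253.4 ± 51.4 (SD, n = 5 and 4). Their adjusted p values were 0.450, 0.549 and 0.567.

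Complex II, succinate dehydrogenase, also serves the tricarboxylic acid cycle. Sdha, its flavoprotein, had 7085, 5945, 5312, 5633 and 5297 in Msr1-/- livers and 5619, 3568, 6915 and 4458 in wild-type livers, a log2 difference of 0.22 ± 0.18 (SE) with an adjusted p of 0.645, and 0.38 without wild type 3. Sdhb, the iron-sulphur subunit, differed by 0.09 ± 0.18, and the membrane anchors Sdhc and Sdhd by 0.12 ± 0.09 and -0.02 ± 0.18. The genotypes overlapped for Sdha, with animal 1 of the Msr1-/- livers and wild type 3 highest. Sdhb turned to -0.04 and Sdhd to 0.14 without wild type 3, and none of the 4 was called with or without it.

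Complex III passes electrons from ubiquinol to cytochrome c, and its 8 nuclear-encoded subunits had a median of -0.04, with 3 positive and 5 negative, or -0.15 without wild type 3, with 2 positive and 6 negative. The core proteins and the hinge protein lay on opposite sides of 0. Uqcrc1, core protein 1, had 2882, 3485, 3633, 3299 and 3551 in Msr1-/- livers and 2519, 2988, 2697 and 3083 in wild-type livers, a difference of 0.26 ± 0.11 (SE), adjusted p 0.303, and 0.24 without wild type 3. Only animal 1 of the Msr1-/- livers fell among the wild-type livers. Uqcrc2, core protein 2, differed by 0.34 ± 0.21, adjusted p 0.498, and by 0.50 without wild type 3, adjusted p 0.151. Uqcrh, the hinge protein, averaged 3039 ± 288 in Msr1-/- livers and 3597 ± 306 in wild-type livers (SD), a difference of -0.24 ± 0.11 (SE), adjusted p 0.324, and -0.23 without wild type 3.

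Complex IV, cytochrome c oxidase, hands the electrons to oxygen, and it held the member that differed most among the nuclear-encoded ones. Cox6c (chromosome 15, 35925886 to 35938246 in mm10, minus strand) encodes a small subunit outside the catalytic core. It had 3293, 3875, 4125, 5184 and 3864 normalised reads in Msr1-/- livers and 5671, 6784, 3704 and 7097 in wild-type livers. Every Msr1-/- liver was below wild type 1, 2 and 4, while wild type 3 lay among the Msr1-/- livers. With all 9 livers the log2 difference was -0.49 ± 0.20 (SE), 95% interval -0.92 to -0.05, with an adjusted p of 0.267.

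Without wild type 3, Cox6c was the 1 member of 98 that was called in limma (1.02%, against 4.91% of all genes in either direction and 2.32% lower), with means of 4068 ± 694 (SD, n = 5) in Msr1-/- livers and 6517 ± 750 (SD, n = 3) in wild-type livers. The difference was then -0.69 ± 0.15 (SE), adjusted p 0.0226. Unadjusted p values under 0.05 numbered 20 of 98 members (20.4%, against 21.5% of all genes), 5 higher (11.3% of all genes) and 15 lower (10.2%). In edgeR and DESeq2 without that liver, Cox6c was again the only member called, where 5.08% and 8.24% of all genes passed. With array weights, which let limma count a deviating library for less, Cox6c was likewise the only member called (adjusted p 0.0320, against 4.1% of all genes and 1.96% lower). Cox6c made up 8.80%, 8.68%, 9.02%, 9.84% and 8.55% of the summed nuclear-encoded complex IV reads in Msr1-/- livers and 12.3%, 13.3%, 9.04% and 13.5% in wild-type livers, so the share in wild type 3 was within the Msr1-/- range here as well. About 31.3% of its transcript lies in close annotated copies (95% identity or more over at least 100 bases), and it overlaps Vps13b on the other strand. With no strand setting stated for the counting, reads from these cannot be told apart.

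**Figure D3:**
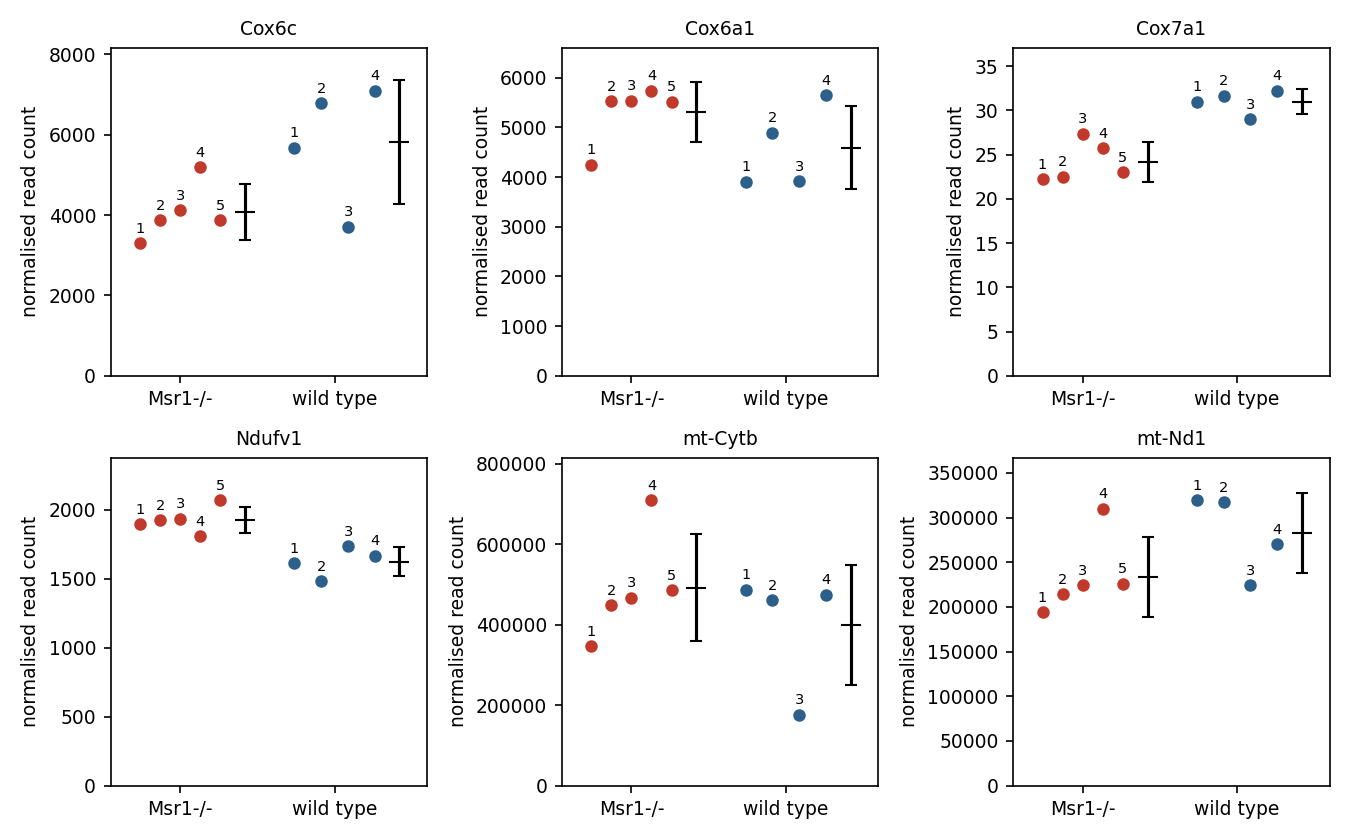
Normalised reads of Cox6c, Cox6a1, Cox7a1, Ndufv1, mt-Cytb and mt-Nd1 in each liver, with 1 numbered point per animal and the mean and SD beside it, Msr1-/- left and wild type right. For Cox6c the Msr1-/- livers reach from 3293 to 5184 and wild type 3 lies among them at 3704, while the other wild-type livers lie between 5671 and 7097.

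Several complex IV subunits come as isoforms that differ between tissues. The forms known from liver were abundant, and those known from muscle, lung or testis were low or nearly silent. Cox6a1, the liver form of subunit 6a, averaged 5314 ± 603 in Msr1-/- livers and 4591 ± 840 in wild-type livers (SD), a log2 difference of 0.22 ± 0.15 (SE), adjusted p 0.542, and 0.15 without wild type 3. Cox4i1 averaged 7345 ± 781 and 7252 ± 1049 and Cox8a 3206 ± 416 and 3105 ± 353 in Msr1-/- and wild-type livers, while Cox4i2, Cox8b and the testis form Cox6b2 stayed below the level tested, with no liver above 8.81. Cox7a2, the widely expressed form of subunit 7a, and Cox7a2l, which helps join complexes III and IV, differed by -0.21 and -0.25, with adjusted p values of 0.428 and 0.326, and by -0.13 and -0.17 without wild type 3. Cox7a1, the heart and muscle form, was low but did not overlap, at 22.3, 22.5, 27.4, 25.7 and 23.0 in Msr1-/- livers and 31.0, 31.7, 29.0 and 32.3 in wild-type livers. Its difference was -0.35 ± 0.19 (SE), adjusted p 0.423, and -0.38 without wild type 3. Ndufa4, an abundant protein associated with complex IV, differed by -0.01 ± 0.11, and its paralogue Ndufa4l2 by -0.02 ± 0.31, or -0.19 without wild type 3.

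The 15 ATP synthase genes had a median of 0.00 with all 9 livers, 8 positive and 7 negative, and 0 called. Leaving out wild type 3 gave a median of -0.14, 5 positive and 10 negative, and again 0 called. At an unadjusted p under 0.05 in limma, 4 were then lower and 0 higher, against 10.2% and 11.3% of all genes. The 3 genes of ATP synthase for the same ring subunit c differed in level. Atp5g3 had 5399 ± 576 in Msr1-/- livers and 5183 ± 536 in wild-type livers, Atp5g1 1651 ± 291 and 1705 ± 248, and Atp5g2 236.0 ± 27.4 and 220.4 ± 20.5 (SD). Per kilobase of exon their means over the 9 livers were 2432, 340.9 and 136.8, in that order. The members of smallest p were Atp5j2, Atp5e and Atp5o, small subunits of the enzyme and its stalk, at -0.31, -0.31 and -0.20, with adjusted p values of 0.399, 0.537 and 0.579, and at -0.40, -0.44 and -0.28 without wild type 3.

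The mitochondrial mRNAs were the most abundant members. Per kilobase, their median over the 9 livers was 230210, against 1342 for the nuclear-encoded members tested. The 7 had a median log2 difference of 0.22, with 6 positive and 1 negative, and 0 called. The median was -0.07 without wild type 3, with 2 positive. Wild type 3 was the lowest of the 9 livers for 6 of the 7, and animal 4 of the Msr1-/- livers the highest for 6.

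**Figure D4:**
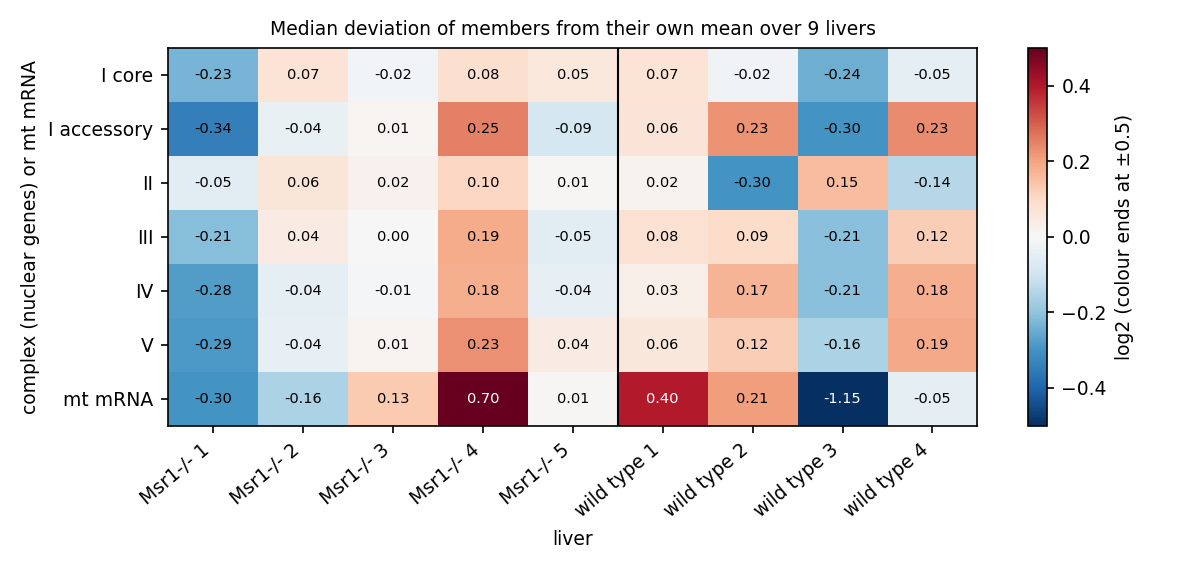
Median deviation of each liver from the mean of the 9 livers, on the log2 scale, for the tested members by complex and for the mitochondrial mRNAs (rows), with 1 column per liver. The mitochondrial mRNAs range from -1.15 in wild type 3 to 0.70 in animal 4 of the Msr1-/- livers, and the nuclear-encoded complexes from -0.34 (complex I accessory, animal 1 of the Msr1-/- livers) to 0.25 (the same class, animal 4).

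Single mitochondrial genes showed the same pair of livers at the ends. mt-Cytb, the cytochrome b of complex III, had 346942, 448612, 467050, 708580 and 485674 in Msr1-/- livers and 486321, 460724, 176178 and 474372 in wild-type livers. The log2 difference was 0.37 ± 0.39 (SE), adjusted p 0.743, and 0.01 without wild type 3. mt-Co1, the catalytic subunit of complex IV, had 251303, 307014, 376665, 555399 and 330720 in Msr1-/- livers and 504705, 345979, 244588 and 284697 in wild-type livers, a difference of 0.08 ± 0.34. For both genes the genotypes overlapped, and the sign for mt-Co1 turned to -0.07 without wild type 3.

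Complex I subunits encoded by the mitochondrion did not all lie on the same side. mt-Nd1 had 193812, 214394, 224264, 309740 and 226158 in Msr1-/- livers and 319158, 317383, 224316 and 270481 in wild-type livers, a difference of -0.28 ± 0.26 (SE), adjusted p 0.692, and -0.39 without wild type 3. mt-Nd2, mt-Nd4, mt-Nd5 and mt-Nd6 differed by 0.15 ± 0.31, 0.27 ± 0.35, 0.34 ± 0.36 and 0.22 ± 0.34. Without wild type 3 these were -0.08, -0.07, 0.02 and -0.13, so the positive sign rested on that liver for all but mt-Nd5. mt-Nd6 lies on the opposite strand and overlaps the end of mt-Nd5, and its reads were 0.409 to 0.567 of those of mt-Nd5 in the 9 livers. Since no strand setting is stated, its level is uncertain, and so are those of mt-Co1 (100% of the transcript in close annotated copies), mt-Nd4 (63.6%), mt-Nd5 (52.3%) and mt-Nd2 (49.1%).

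The 2 rRNAs of the mitochondrial ribosome lay lower in Msr1-/- livers. They took only 0.119% to 0.253% of the reads, against 7.29% to 13.7% for the mitochondrial mRNAs. Whether the library preparation affected their levels was not tested. mt-Rnr1, the small subunit rRNA, had 8615, 15127, 10918, 15416 and 12042 in Msr1-/- livers and 13994, 19802, 15737 and 20690 in wild-type livers. Animals 2 and 4 of the Msr1-/- livers lay above wild type 1, so the genotypes overlapped, and the difference was -0.51 ± 0.20 (SE), 95% interval -0.95 to -0.07, adjusted p 0.244. mt-Rnr2, the large subunit rRNA, differed by -0.38 ± 0.18, adjusted p 0.367. The differences were -0.56 and -0.41 without wild type 3, with adjusted p values of 0.141 and 0.235. Of the tRNAs, mt-Tp and mt-Tc were tested, with differences of -0.39 ± 0.20 and -0.37 ± 0.25, and the other 4 had too few reads.

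**Figure D5:**
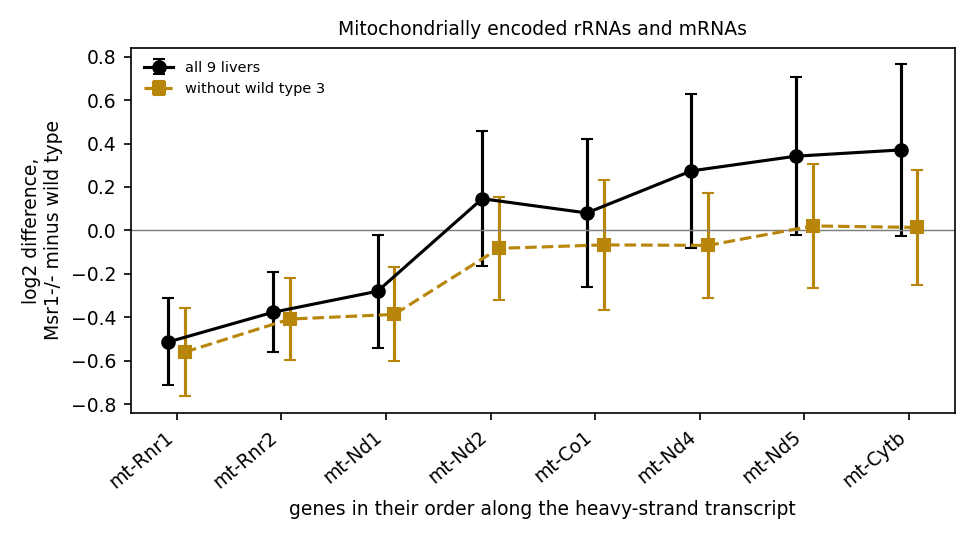
Log2 difference, Msr1-/- minus wild type, with its SE, of the 8 tested mRNAs and rRNAs listed on the plus strand, in their order along the mitochondrial genome, for all 9 livers and without wild type 3. With 9 livers the values run from -0.51 at mt-Rnr1 to 0.37 at mt-Cytb, and without wild type 3 from -0.56 to 0.02.

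The genes on the plus strand of the mitochondrial chromosome are transcribed as 1 long precursor, with the rRNAs near its start. Taken in that order, the log2 differences of the 8 genes were -0.51 (mt-Rnr1), -0.38 (mt-Rnr2), -0.28 (mt-Nd1), 0.15 (mt-Nd2), 0.08 (mt-Co1), 0.27 (mt-Nd4), 0.34 (mt-Nd5) and 0.37 (mt-Cytb), with Spearman's rho of 0.976 to the order. Leaving out wild type 3 gave a rho of 0.952, with the last 5 genes between -0.08 and 0.02, and over each liver left out in turn it lay between 0.952 and 1. The 8 points share the same libraries, the order was looked at after the values were seen, and rho is given as a description across genes.

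Within a liver, the ratios of mt-Cytb and mt-Nd2 to mt-Nd1 separated the genotypes, while those of mt-Co1, mt-Nd4 and mt-Nd5 to mt-Nd1 overlapped. mt-Cytb over mt-Nd1 was 1.79, 2.09, 2.08, 2.29 and 2.15 in Msr1-/- livers and 1.52, 1.45, 0.785 and 1.75 in wild-type livers. mt-Nd2 over mt-Nd1 was 1.30, 1.27, 1.13, 1.25 and 1.22 in Msr1-/- livers and 1.12, 1.00, 0.713 and 0.886 in wild-type livers. Neither of these ratios overlapped, with or without wild type 3, although for mt-Nd2 animal 3 of the Msr1-/- livers and wild type 1 nearly met. These ratios were chosen after the values were seen and carry no test. With all livers, the shared denominator mt-Nd1 had a log2 difference of -0.28 and every numerator a positive one, so the ratios partly restate that contrast. Separation was not confined to mt-Nd1 ratios. Cox6c over Cox6a1 was 0.70 to 0.90 in Msr1-/- livers and 0.94 to 1.45 in wild-type livers, whereas mt-Rnr2 over mt-Rnr1 and mt-Nd6 over mt-Nd5 overlapped. How often ratios of other gene pairs separate the genotypes was not counted.

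Nuclear-encoded members moved together from liver to liver, across genotypes. Animal 1 of the Msr1-/- livers was the lowest of the 9 for 39 of the 87 tested (44.8%, against 12.0% of all genes), and wild type 3 for 28 (32.2%, against 25.5%). The highest liver was animal 4 of the Msr1-/- livers for 27 (31.0%, against 8.48%) and wild type 4 for 20 (23.0%, against 9.94%). The median of complex II did not follow: its deviation was -0.05 in animal 1 of the Msr1-/- livers, 0.15 in wild type 3 and -0.30 in wild type 2, where the accessory subunits of complex I stood at -0.34, -0.30 and 0.23. Its genes were split, however. Sdhb followed, highest in animal 4 of the Msr1-/- livers (6820) and lowest in wild type 3 (3611). Sdha was instead highest in animal 1 of the Msr1-/- livers (7085) and lowest in wild type 2 (3568). Split by the length of their annotated exons, the medians of longer and shorter members deviated in the same directions, though single members did not. Among the longer ones, Ndufs1 was highest in animal 1 of the Msr1-/- livers (1724) and Atp5b in wild type 3 (14866). Whether length plays a part was not tested. The 44 at or above the members' median length stood at -0.22 in animal 1 and 0.19 in animal 4 of the Msr1-/- livers and -0.21 in wild type 3, and the 43 shorter ones at -0.31, 0.23 and -0.22. Over the 1624 tested genes with less exon sequence than the median member, the deviation was -0.18 in animal 1 and 0.13 in animal 4 of the Msr1-/- livers and -0.15 in wild type 3, and over the longer 11224 genes it was 0.03, -0.01 and 0.03.

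Promoters were examined for the letters that factors of respiratory genes bind, and the upstream sequences of 3 members named above are shown because they hold such letters. NRF1, a nuclear factor that activates many respiratory genes, binds GCGCA followed by any base and GCGC. ETS factors such as GABPA bind CCGGAAG, and YY1 binds AAGATGGCG. Both strands were searched over 250 bases before to 50 after the gene's start, and CCGGAAG and AAGATGGCG can share the letters AAG. RefSeq promoters (GRCm38.p6) matched 76 of the 90 nuclear-encoded members. Sdha lies at chr13:74350241-74350490, Sdhd at chr9:50603850-50604099 and Cox6a1 at chr5:115348959-115349208, all on the minus strand, each shown 5′ to 3′ up to the base before the start. Capitals mark the NRF1 letters and CCGGAAG on either strand.
Sdha: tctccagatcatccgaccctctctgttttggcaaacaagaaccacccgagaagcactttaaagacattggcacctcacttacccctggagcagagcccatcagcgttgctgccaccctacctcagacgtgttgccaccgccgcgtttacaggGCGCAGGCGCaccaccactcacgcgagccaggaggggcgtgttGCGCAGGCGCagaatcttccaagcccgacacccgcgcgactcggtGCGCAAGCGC
Sdhd: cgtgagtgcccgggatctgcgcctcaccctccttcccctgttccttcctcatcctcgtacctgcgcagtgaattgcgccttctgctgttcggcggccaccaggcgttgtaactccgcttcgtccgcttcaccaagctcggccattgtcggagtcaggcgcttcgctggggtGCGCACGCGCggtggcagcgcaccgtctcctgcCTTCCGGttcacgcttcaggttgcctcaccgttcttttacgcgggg
Cox6a1: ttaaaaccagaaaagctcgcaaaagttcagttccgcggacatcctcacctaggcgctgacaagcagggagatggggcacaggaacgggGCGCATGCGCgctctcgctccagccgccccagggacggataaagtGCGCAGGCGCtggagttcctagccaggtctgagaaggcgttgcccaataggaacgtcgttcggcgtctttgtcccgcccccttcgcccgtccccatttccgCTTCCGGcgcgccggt

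The NRF1 letters occurred in 19 of the 76 members' promoters (25.0%), against 11.4% of those of the 9956 tested genes with a promoter entry and 4.60% of all 32851 promoters. The ETS letters occurred in 18 (23.7%), against 19.8% and 8.86%, and the YY1 letters in 9 (11.8%), against 3.61% and 1.40%. For members and tested genes, a gene was counted if any of its promoters held the letters, whereas the share of all promoters counts each promoter singly. A match is a description of the letters and not a bound site. The factors themselves did not pass the test: Nrf1 averaged 116.0 ± 18.9 in Msr1-/- livers and 128.1 ± 12.0 in wild-type livers, Gabpa 443.1 ± 111.5 and 406.1 ± 81.7, and Yy1 516.5 ± 48.9 and 518.5 ± 16.5 (SD, n = 5 and 4), with adjusted p values of 0.715, 0.851 and 0.979.

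Genes that serve the chain without matching the symbol rule were taken from 12 lists of 143 genes, of which 133 were tested. They cover cytochrome c and other complex III genes, assembly factors, upkeep and transcription of mitochondrial DNA, RNA processing, regulators, carriers, the tricarboxylic acid cycle, import and other electron entry routes. With all 9 livers 0 were called, against 1.37% of all genes (81 positive, 52 negative), and 12 had an unadjusted p under 0.05 (9.02%, against 15.3% of all genes). Cycs, the cytochrome c that links complexes III and IV, averaged 605.7 ± 59.5 in Msr1-/- livers and 700.8 ± 49.4 in wild-type livers (SD), a difference of -0.21 ± 0.11 (SE), adjusted p 0.387. Hsd17b10, a subunit of the mitochondrial RNase P that frees tRNAs from the precursor, averaged 5895 ± 1387 and 3290 ± 902, a difference of 0.86 ± 0.23 (SE), adjusted p 0.0948, and 0.63 without wild type 3, adjusted p 0.0622. Tfam and Polrmt, which package and transcribe mitochondrial DNA, differed by 0.12 and 0.18, with adjusted p values of 0.713 and 0.752, and by 0.19 and 0.02 without wild type 3.

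Without wild type 3, 6 of those 133 genes were called (4.51%, against 4.91% of all genes). Among them, higher in Msr1-/- livers were Ppara, a fatty acid sensing nuclear receptor (log2 difference 0.71, adjusted p 0.0375), Slc25a20, the carnitine-acylcarnitine carrier (0.51, 0.0371), Nnt, the proton-driven transhydrogenase that makes NADPH (0.48, 0.0360), and Gpd2, which feeds electrons from glycerol phosphate into the chain (1.20, 0.00841). Ucp2, an uncoupling protein relative abundant in macrophages, was lower (-0.58, 0.0326). With all 9 livers these had adjusted p values of 0.112, 0.0780, 0.507, 0.152 and 0.0822, in that order.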

How the data were processed

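In the deposited table each of 17442 genes has a normalised signal for each liver, its reads divided by that liver's size factor. The submitters' processing notes name STAR, HTSeq and DESeq2 with the mouse build mm10, and no versions. The library kit was TruSeq RNA, according to the labels, and nothing there says whether counting used strand. Every value was a whole multiple of 1 step per liver within 0.01 reads (100%), so whole reads were recovered. Depth limits cover counting error only. All columns matched a labelled animal, and no libraries were duplicates (lowest chi-square per degree of freedom 21.3).

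Values were taken as log2(value + 1), and the 12937 genes with a mean of 10 or more were tested with limma 3.58.1 in R 4.3.3 (intensity trend, genotype only, Benjamini-Hochberg adjusted p under 0.05). On the recovered reads, edgeR 4.0.16 (quasi-likelihood) called 185 genes and DESeq2 1.42.0 called 773, against 177 in limma. Msr1 had an exact permutation test. On simulated counts limma was tested and recovered the direction of every changed gene it called.

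Members, lists and the rule for named members were chosen with earlier results of these data known. The rule names called members, the 3 of smallest p in each class, the 5 largest and 5 smallest differences, the mitochondrial mRNAs and rRNAs, complex II and the isoform groups. Genes of the 12 lists are named for a call without wild type 3, a small p or their role, after their values were seen. Alternatives were pseudocounts of 0.5 and 5, no filter or a mean of 50, TMM, quantile and non-mitochondrial scaling, edgeR, DESeq2, array weights, a replicate block and each liver left out, and, added after seeing the data, edgeR and DESeq2 without wild type 3. Coordinates and copies come from GENCODE M21 (GRCm38), which matched all 109 members, 1 by an older symbol. Some results that the rule would name are not reported here.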

Additional observations from a re-analysis of the deposited data

Results flagged for a closer look

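In 90 groups of livers examined, 5 held a liver far from the others of its genotype relative to the group's range, where chance gives about 1 in 20. Cox6a1 had its lowest Msr1-/- value in animal 1, at 4248, against 5516 to 5742 in the other 4. mt-Nd1 and mt-Nd2 had their highest Msr1-/- values in animal 4, at 309740 and 388418, against 193812 to 226158 and 252721 to 274901 in the others. mt-Cytb and mt-Nd4 had their lowest wild-type values in wild type 3, at 176178 and 94063, against 460724 to 486321 and 240482 to 246248. The number flagged is near what chance gives. These 5 values lie in the 3 livers that lay at the ends for the members as a whole, to which the same values contributed.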

How the results depend on the processing

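For 42 named members tested, 841 values under alternatives were computed: 796 kept their direction and side of the threshold, 4 (all of Cox6c) passed it, and 41 in 14 members turned sign. The number of members called higher was 0 in every alternative run, and the number called lower was 1 (Cox6c) with array weights, without wild type 3, and in edgeR (adjusted p 0.0247) and DESeq2 (0.00072) without wild type 3. Over livers left out in turn it lay between 0 and 1, the nuclear-encoded median between -0.15 and 0.02, the mitochondrial mRNA median between -0.07 and 0.38, and the Msr1 difference between -0.72 and -0.31, its exact permutation p between 0.0286 and 0.107 and past the threshold in 1 of 9. Scaling to totals without mitochondrial reads moved the median of all genes from 0.02 to -0.09 and turned Atp5g2 (-0.011), Atp5g3 (-0.050), Cox4i1 (-0.085), Cox8a (-0.064), Ndufs1 (-0.0039), Sdhb (-0.020) and mt-Co1 (-0.027). Quantile scaling turned Atp5g3 (-0.037), Cox4i1 (-0.12), Cox8a (-0.051), Ndufa4l2 (0.11) and mt-Co1 (-0.24). Array weights turned Cox4i1 (-0.035), Cox8a (-0.0012), Ndufa4 (0.042), Sdhb (-0.0028) and Sdhd (0.16). The cause was not tested. Over livers left out, differences that turned ran from -0.15 to 0.049 for Atp5g1, -0.040 to 0.098 for Cox4i1, -0.023 to 0.12 for Cox8a, -0.086 to 0.024 for Ndufa4, -0.19 to 0.19 for Ndufa4l2, -0.042 to 0.18 for Sdhb, -0.19 to 0.14 for Sdhd, -0.085 to 0.28 for mt-Co1, -0.082 to 0.31 for mt-Nd2, -0.069 to 0.39 for mt-Nd4 and -0.13 to 0.44 for mt-Nd6. Across all genes, edgeR called 185 genes and DESeq2 773 against limma's 177, and array weights 531. Animals share numbers across genotypes, and deviations of same-numbered animals correlated at 0.025, -0.077, -0.102 and 0.218. These values show no pairing but cannot exclude one. With the replicate block on animals 1 to 4, 0 members were called and the nuclear-encoded median was -0.03. In all, 10 genes were called with the block, against 65 for the same animals without it.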
